A study of Mus musculus with 2 samples.

Results

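The 37 autophagy genes described here are the core machinery of autophagosome formation, its cargo receptors and 2 regulators, chosen by symbol from the 32285 genes of the count tables; all 37 were found. They were followed in 8 classes of immune cells taken from tumours of C57BL/6 mice: naive, effector, PD-1 and cycling CD8 T cells, conventional CD4 T cells, regulatory T cells, NK cells and myeloid cells. The series holds 2 libraries made with 10x Genomics 3′ chemistry from cells sorted by FACS for CD45 and CD90.2, 1 with the genotype label WT and 1 with the genotype label Dapl1-KO. The design text sets wild-type against Dapl1-deficient T cells in tumours. Tumour model, age, number of animals and the deleted part of Dapl1 are not given in the sources used here. With 1 library per label no test between genotypes exists, so every ratio compares these libraries and every interval covers counting error only.

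In autophagy, a double membrane closes around a portion of cytoplasm and delivers it to the lysosome for breakdown. The ULK1 complex starts the process, a Beclin 1 lipid kinase complex marks the membrane, and ubiquitin-like conjugation systems attach ATG8 proteins (the LC3 and GABARAP families) to it, where receptors such as p62 dock their cargo. T cells use the pathway to shed organelles, to keep memory and regulatory cells alive and to adjust metabolism after activation. Dap, the death-associated protein, is a substrate of mTORC1 and a suppressor of autophagy, and Dapl1 is named for its likeness to it.

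The libraries held 154408101 (WT) and 206322042 (Dapl1-KO) UMIs, and 13132 barcodes occurred in both, of which only the larger copy was used. Filters left 8992 and 10098 cells, and 5210 and 6428 of them fell into a class. The classes held 28 to 1725 cells and 341631 to 56192594 UMIs per library; the myeloid class was the smallest, with 28 and 63 cells, and its Thy1 (the CD90 gene used in the sort) stood at 11.7 and 9.05 CPM against 118 to 318 CPM in the other classes. Markers outside the gates followed the class names, except for Klrg1 and Lag3 in the effector CD8 class. Klrg1 was low there, at 10.6 CPM labelled WT and 17.0 CPM labelled Dapl1-KO. Lag3 stood at 236 and 161 CPM, below the PD-1 class (293 and 285 CPM), and further below it in the library labelled Dapl1-KO. Levels of other effector and PD-1 markers are not given here, so "effector" is used only as the name of the gate. Dapl1 was not depleted in the library labelled Dapl1-KO. In naive CD8 cells, its highest class, it stood at 178 CPM (1464 UMIs) in the library labelled WT and at 222 CPM (1119 UMIs) in the Dapl1-KO-labelled library, a log2 ratio of 0.32 with a 95% interval of 0.21 to 0.43. A 3′ count outside the deleted part would not check the label. The libraries also differed in sex-linked genes: 10.8% of the cells labelled WT and 69.5% of the cells labelled Dapl1-KO had a Y-linked UMI and no Xist or Tsix. The reverse pattern was found in 73.9% of the cells labelled WT and 0.09% of those labelled Dapl1-KO. With all cells, the label and the sex-linked genes thus differ together between the libraries. The setting used below, cells with only Y-linked genes, keeps a minority of the cells labelled WT. A few gated cells carried melanocyte or fibroblast genes: 17 of 1725 cycling CD8 cells labelled Dapl1-KO and 8 of 966 labelled WT had 5 or more UMIs of these markers, as did at most 3 cells of any other class and library. CPM here is a gene's UMIs scaled to the same total in each class and library.

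Few autophagy genes passed the limits set here for a difference between the 2 libraries. A gene was called higher or lower when the higher level was at least 25% above the lower one (the 25% limit) and the interval of the ratio left out equality, and it counted as measured at a mean of 10 CPM or more. In naive CD8 cells 2 of 23 measured members were higher and 2 lower in the library labelled Dapl1-KO, against 16.3% of all measured genes higher and 15.6% lower. In effector CD8 cells 1 of 24 was higher and 0 lower, against 14.4% and 6.05% of all genes. In PD-1 CD8 cells 1 of 24 was higher and 1 lower, against 12.6% and 8.56%. In cycling CD8 cells 1 of 22 was higher and 0 lower, against 8.24% and 7.56%. The other classes had 3 higher and 1 lower of 27 in conventional CD4 cells (all genes 11.2% and 8.17%), 1 and 1 of 26 in regulatory T cells (5.76% and 14.3%), 2 and 1 of 27 in NK cells (8.83% and 8.81%), and 1 and 1 of 22 in myeloid cells (7.5% and 6.55%). The members' shares were under those of all genes in each CD8 class, for higher and for lower calls, but rest on 0 to 2 genes each. Their median log2 ratios ran from -0.06 to 0.13 over the 8 classes, where the medians of all genes ran from -0.07 to 0.09. A gene without a call need not be equal in the 2 libraries: in the shallow myeloid class uncalled ratios reached 1.55 (Nbr1) and -1.07 (Atg101).

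**Figure D1:**
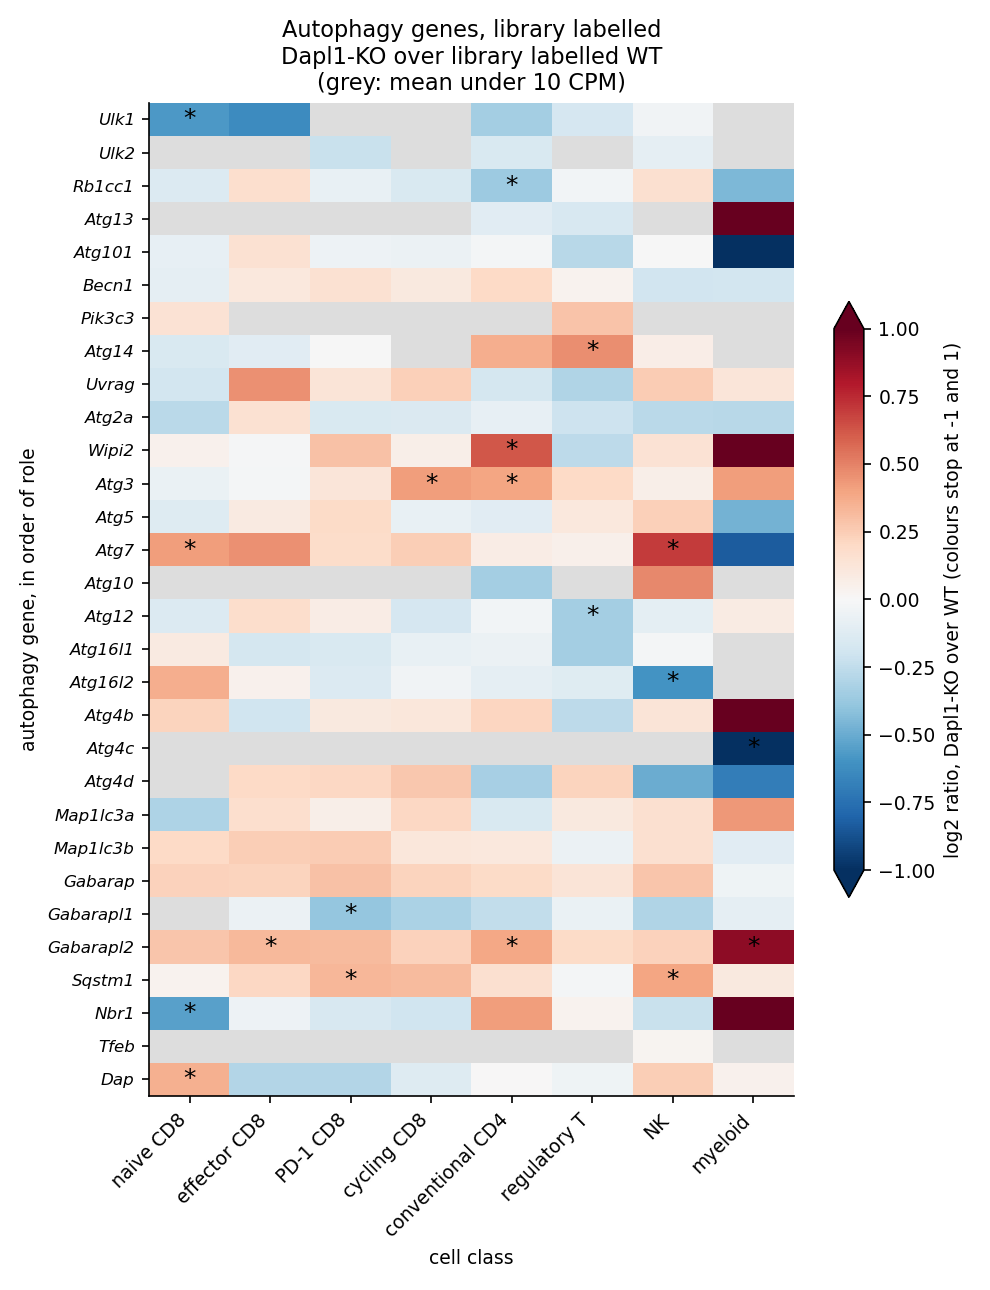
Log2 ratio of each autophagy gene measured in at least 1 class (rows, by role), library labelled Dapl1-KO over library labelled WT, in the 8 cell classes (columns). Asterisks mark the calls at the 25% limit and grey marks a mean under 10 CPM; most fields are pale, with at most 4 calls in a class, and the Gabarapl2 row is red in every class.

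The initiation complex has 5 members. Rb1cc1 (FIP200, the scaffold of the complex) was read in every class, from 34.6 CPM in cycling CD8 cells labelled Dapl1-KO to 74.6 CPM in conventional CD4 cells labelled WT. In conventional CD4 cells it was lower in the library labelled Dapl1-KO, at 58.2 CPM (log2 ratio -0.36, interval -0.64 to -0.08); this call was lost when the doublet score was not used. Ulk1, the initiating kinase, was lower in naive CD8 cells, at 9.12 CPM (46 UMIs) against 13.6 CPM (112 UMIs), a log2 ratio of -0.58 (-1.10 to -0.07). The Ulk1 call rests on few counts. It was lost under stricter gates, among cells with at least 1000 genes and no more than 5% mitochondrial counts, and among cells with only Y-linked genes. At a minimum of 20 CPM Ulk1 was not measured. Any gene with a mean under 20 CPM drops out there by its level alone, and the lost calls counted below include this setting. Atg101, which stabilises Atg13, lay between 32.7 and 47.1 CPM in the lymphocyte classes and was called in no class. Atg13 and Ulk2 stayed near the limit of 10 CPM in the lymphocyte classes. In myeloid cells Atg13 stood at 8.78 CPM (3 UMIs) labelled WT and 19.6 CPM (13 UMIs) labelled Dapl1-KO, and it was called in no class.

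Of the 6 nucleation genes, Becn1 (Beclin 1, the regulatory subunit of the lipid kinase complex) lay between 40.8 and 57.6 CPM over the 16 class and library values, and no neighbours in its order of classes were apart in both libraries. Uvrag, which joins the complex on endosomal and maturing membranes, differed by class. It stood at 55.6 and 60.4 CPM in myeloid cells (19 and 40 UMIs), above each lymphocyte class, where it ran from 11.4 CPM in cycling CD8 cells to 26.9 CPM in effector CD8 cells. Atg14, the subunit that directs the complex to the forming autophagosome, was higher in regulatory T cells labelled Dapl1-KO, at 13.7 against 9.91 CPM (log2 ratio 0.46, 0.01 to 0.93). That interval begins at equality, and 8 of 11 alternatives ended the Atg14 call. Ambra1 and Pik3r4 never reached a mean of 10 CPM, and Pik3c3, the catalytic subunit, did so in 2 classes.

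Of the 5 membrane-supply genes, Atg2a (a lipid transfer protein) and Wipi2 (which reads the lipid mark and recruits Atg16l1) were measured in every class. Wipi2 was higher in conventional CD4 cells labelled Dapl1-KO, at 27.3 CPM (86 UMIs) against 17.8 CPM (60 UMIs), a log2 ratio of 0.62 (0.13 to 1.12), the largest call outside the NK and myeloid classes. Among conventional CD4 cells with only Y-linked genes (51 and 279 cells) the Wipi2 ratio was 0.14 and no longer called. Atg2b, Atg9a and Wipi1 remained under a mean of 10 CPM, as did Ambra1, Pik3r4, Atg4a and Optn; the highest single value of these 7 genes was 10.4 CPM.

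The conjugation systems have 11 members, of which Atg3 and Atg7 were each called between the libraries in 2 classes. Atg3 is the E2-like enzyme that passes ATG8 proteins to phosphatidylethanolamine, and Atg7 is the E1-like enzyme that activates them. In cycling CD8 cells Atg3 stood at 45.4 CPM (1582 UMIs) labelled WT and 60.6 CPM (3408 UMIs) labelled Dapl1-KO, a log2 ratio of 0.42 (0.33 to 0.50). In conventional CD4 cells it stood at 47.4 and 62.3 CPM, a ratio of 0.39 (0.09 to 0.70). In the other lymphocyte classes the values of Atg3 were between 39.2 and 56.8 CPM and its ratio between -0.06 and 0.20, with no call. The cycling call was lost with all deposited barcodes (0.31) and among cells with only Y-linked genes (0.26, 121 and 1515 cells); without the cells rich in melanocyte or fibroblast UMIs the ratio was 0.41 and called. Atg7 was higher in NK cells labelled Dapl1-KO, at 24.6 against 15.2 CPM (log2 ratio 0.70, 0.24 to 1.17), and in naive CD8 cells, at 17.8 against 13.3 CPM (0.42, 0.00 to 0.83). Among NK cells with only Y-linked genes, 22 of them labelled WT, the Atg7 ratio was -0.98, and 7 of 11 alternatives ended the naive call.

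Atg12, the ubiquitin-like partner of Atg5, was lower in regulatory T cells labelled Dapl1-KO, at 48.0 against 60.8 CPM (log2 ratio -0.34, -0.55 to -0.13), and 4 alternatives ended that call. Atg16l2, a relative of the Atg16l1 scaffold, varied by class. It was highest in regulatory T cells (30.7 and 28.3 CPM) and PD-1 CD8 cells (26.0 and 23.7 CPM), low in naive CD8 cells (9.70 and 12.5 CPM) and nearly unread in myeloid cells, with 0 UMIs labelled WT and 1 labelled Dapl1-KO. In NK cells Atg16l2 was lower in the library labelled Dapl1-KO, at 10.7 against 16.2 CPM (log2 ratio -0.60, -1.15 to -0.06), a call lost in 3 alternatives. Atg5, Atg16l1, Atg4b and Atg4d were called between the libraries in no class. Atg4c reached 10 CPM only in myeloid cells, with 8 UMIs labelled WT and 2 labelled Dapl1-KO, a log2 ratio of -2.96 whose counting interval runs from -6.23 to -0.63.

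The promoter stretches of the 4 members that hold the motif CACGTG are shown because lysosome and autophagy genes are textbook targets of TFEB, whose binding motif (the CLEAR element) has the core TCACGTGA around the E-box CACGTG. Both motifs read the same on either strand. RefSeq promoters of GRCm38.p6, from 250 bases before to 50 bases after a gene's start, were found for 31 of the 37 members. Some genes have more than 1 start in that table (32851 promoters for 27025 genes), and a gene counted when any of its promoters held the motif. The windows of Atg7 and Atg14 belong to such starts inside the annotated gene, not to its outermost start. The core TCACGTGA was in 1 of the 31, Atg3, against 1.12% of 27025 genes. CACGTG, which every core contains, was in 4 of the 31 (Atg3, Atg5, Atg7 and Atg14), against 8.09% of genes. Of the lysosome genes, 7 of 23 (30.4%) held the core and 13 (56.5%) held CACGTG. Each line gives 30 bases on the gene's own strand with the motif in capitals; the first shows the core and the others the E-box.
Atg3 core, chr16:45158746-45158775, plus strand: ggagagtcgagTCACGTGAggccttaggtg
Atg3 second E-box, chr16:45158723-45158752, plus strand: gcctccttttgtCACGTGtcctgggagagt
Atg5, chr10:44268313-44268342, plus strand: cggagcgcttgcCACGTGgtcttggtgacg
Atg7, chr6:114670952-114670981, plus strand: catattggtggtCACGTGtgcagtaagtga
Atg14, chr14:47568418-47568447, minus strand: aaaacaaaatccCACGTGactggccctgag
The core of Atg3 begins 72 bases before the RefSeq start of its promoter, which lies slightly inside the annotated gene (start at chr16:45158785). A match is a stretch of letters and not a measured site. Tfeb itself was low, reaching a mean of 10 CPM only in NK cells, where it stood at 11.1 and 11.3 CPM in the 2 libraries.

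Among the 5 ATG8 genes, Gabarapl2 was higher in the Dapl1-KO-labelled library in 8 of 8 classes, although the difference reached the 25% limit in 3. Gabarapl2 (GATE-16, at chr8:111940703-111953612 on the plus strand of GRCm38) stood in naive CD8 cells at 99.6 and 121 CPM (WT, then Dapl1-KO), in effector CD8 cells at 155 and 194, in PD-1 CD8 cells at 133 and 165, and in cycling CD8 cells at 116 and 136 CPM. In conventional CD4 cells the values were 161 and 210 CPM, in regulatory T cells 157 and 180, in NK cells 177 and 208, and in myeloid cells 52.7 and 98.1 CPM. The second value was the higher in each pair, and the interval of the ratio lay above 0 in each class. It was called in effector CD8 cells (log2 ratio 0.33, 0.16 to 0.49), in conventional CD4 cells (0.38, 0.22 to 0.55) and in myeloid cells (0.90, 0.13 to 1.74), the last from 18 and 65 UMIs. The effector call was lost in 5 of 11 alternatives, the conventional CD4 call among cells with only Y-linked genes (0.08), and the myeloid call with all deposited barcodes (0.54) and a wider gate (0.33). The ratios of the 8 classes come from the same 2 libraries and are not separate replicates. The direction of Gabarapl2 was the same in 8 of 8 classes when ratios were centred on all genes, when cells were weighted equally, with all deposited barcodes and without the cells rich in melanocyte or fibroblast UMIs, and in 7 of 7 classes with enough cells among those with only Y-linked genes.

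Gabarap, the founding member of its family, was above in the library labelled Dapl1-KO in 7 of 8 classes, by log2 ratios of 0.13 to 0.29, and called in none. In PD-1 CD8 cells it stood at 287 and 352 CPM, and in myeloid cells, the exception, at 981 and 952 CPM (-0.04, -0.24 to 0.15). The myeloid ratio of Gabarap was just above 0 when cells were weighted equally, with all deposited barcodes and without the cells rich in melanocyte or fibroblast UMIs, so its sign depends on the choice. Map1lc3b (LC3B, the usual marker of autophagosomes) was above in 6 of 8 classes, with its largest ratio in PD-1 CD8 cells, at 334 and 399 CPM (0.26, 0.20 to 0.31), and was below in regulatory T and myeloid cells; centred on all genes, 7 of 8 classes were above. Gabarapl1 went the other way. It was below in the library labelled Dapl1-KO in each of the 7 classes where it was measured, and called in PD-1 CD8 cells, at 31.6 CPM (477 UMIs) labelled WT and 24.2 CPM (443 UMIs) labelled Dapl1-KO, a ratio of -0.39 (-0.58 to -0.20). Cycling CD8 cells showed 31.2 and 25.0 CPM (-0.32, -0.43 to -0.20). Centring put 1 of the 7 Gabarapl1 ratios just above 0, and among cells with only Y-linked genes 2 of 6 were above; the call in PD-1 CD8 cells was lost in those cells and without the doublet score.

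The order of the classes differed from gene to gene. Map1lc3b was highest in regulatory T cells, at 470 and 452 CPM, apart in both libraries from conventional CD4 (373 and 401) and PD-1 CD8 cells but not from effector CD8 cells (368 and 437), whose interval overlapped in the library labelled Dapl1-KO. NK (311 and 347), myeloid (293 and 270), naive CD8 (231.5 and 265) and cycling CD8 cells (238 and 257) followed for Map1lc3b. Gabarap had its top in myeloid cells, then a group of 5 lymphocyte classes between 278 and 352 CPM that did not stand apart in both libraries, then cycling CD8 cells (209 and 244) and, lowest, naive CD8 cells (163 and 192). Gabarapl2 was highest in NK and conventional CD4 cells. Map1lc3a, the LC3A gene, ran from 23.2 CPM in naive CD8 cells to 61.0 CPM in NK cells and was called between the libraries in none of the classes.

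**Figure D2:**
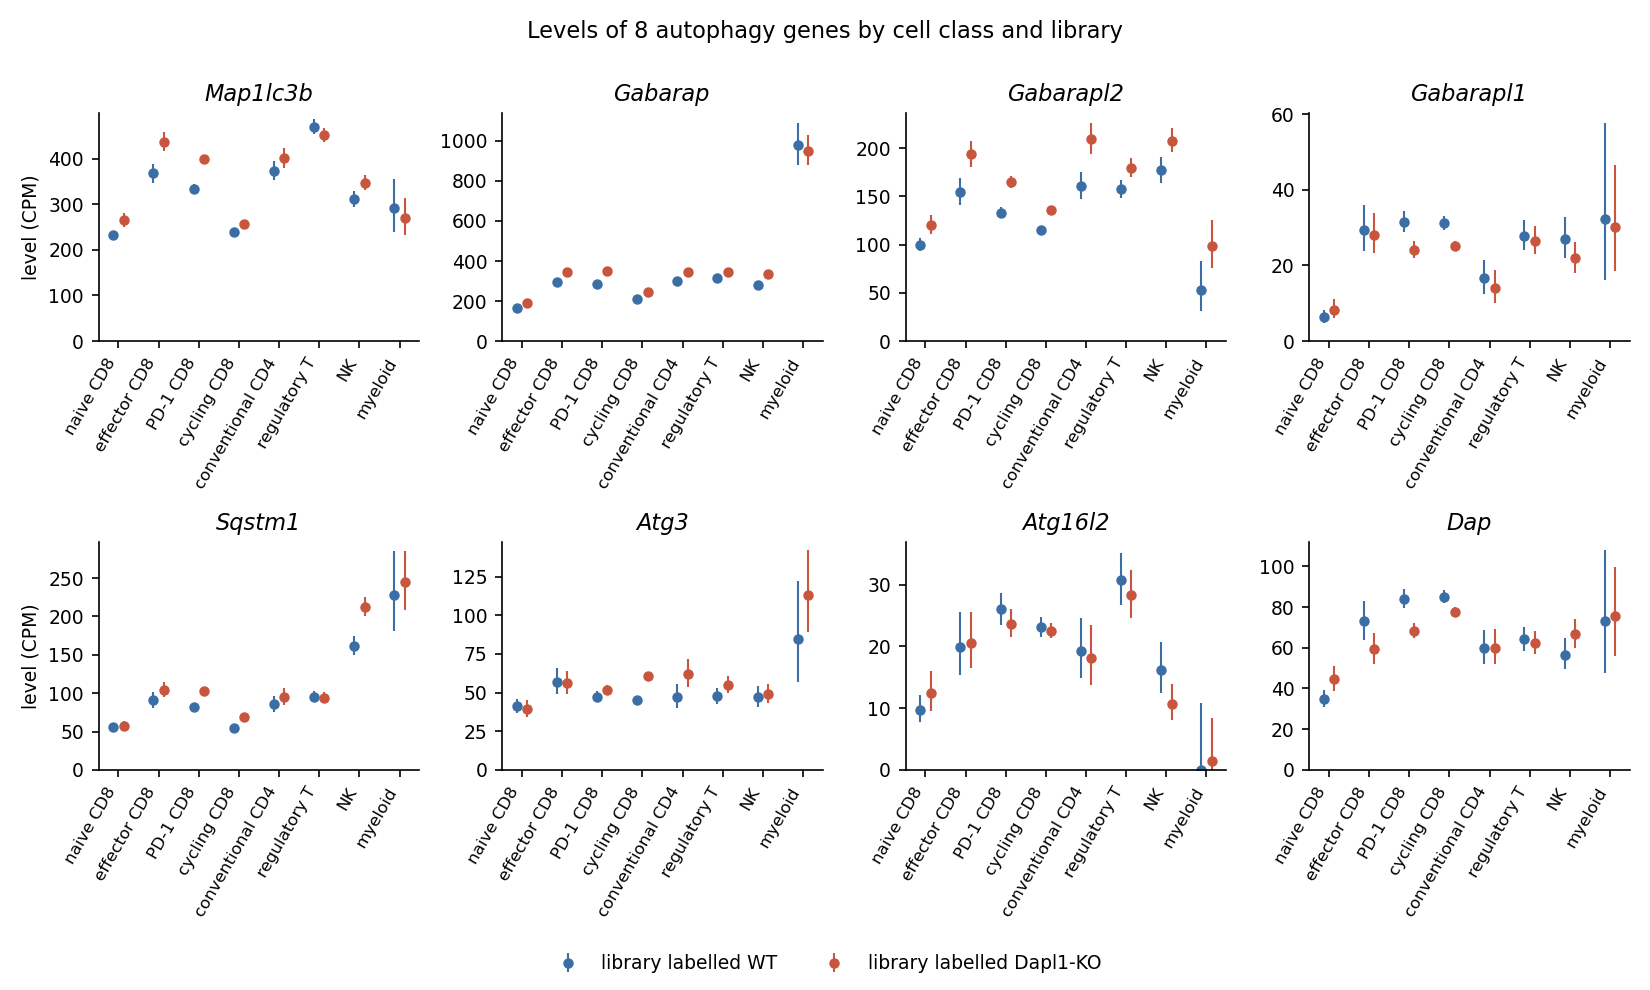
Level in CPM of 8 autophagy genes in each cell class, for the library labelled WT (blue) and the library labelled Dapl1-KO (red); bars are exact 95% Poisson intervals of 1 library each. Gabarapl2 is higher in red in all 8 classes, Gabarap and Sqstm1 stand highest in myeloid cells, and Dap and Gabarapl1 are lowest in naive CD8 cells.

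Of the 3 cargo receptors, Sqstm1 (p62, which carries ubiquitinated cargo and is itself degraded by autophagy) was higher in the Dapl1-KO-labelled library in PD-1 CD8 and NK cells. In PD-1 CD8 cells it stood at 82.2 CPM (1243 UMIs) and 103 CPM (1896 UMIs), a log2 ratio of 0.33 (0.23 to 0.43). In NK cells it stood at 162 and 212 CPM (0.39, 0.25 to 0.54). Cycling CD8 cells had a like ratio for Sqstm1 just short of the 25% limit, at 55.2 and 68.6 CPM (0.32, 0.24 to 0.39), while naive CD8 cells (55.3 and 56.7 CPM) and regulatory T cells (95.2 and 94.0 CPM) differed by less than their counting intervals. The PD-1 call was lost in 6 of 11 alternatives, over which the ratio ran from 0.22 to 0.34, and the NK call in 2. Nbr1, a second ubiquitin receptor, was lower in naive CD8 cells labelled Dapl1-KO, at 10.9 CPM (55 UMIs) against 15.9 CPM (131 UMIs), a ratio of -0.54 (-1.03 to -0.08), and that call was lost with all deposited barcodes and at a minimum of 20 CPM.

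Dap (chr15:31224314-31274341, plus strand, GRCm38) differed in opposite directions among the CD8 classes. In naive CD8 cells it stood at 34.8 CPM (287 UMIs) labelled WT and 44.6 CPM (225 UMIs) labelled Dapl1-KO, a log2 ratio of 0.36 (0.10 to 0.61) that was called. In PD-1 CD8 cells it stood at 83.9 and 68.4 CPM (-0.30, -0.41 to -0.18) and in effector CD8 cells at 73.0 and 59.5 CPM (-0.30, -0.56 to -0.03), both short of the 25% limit. In cycling CD8 cells it stood at 85.1 and 77.8 CPM (-0.13, -0.20 to -0.06). Naive CD8 cells were thus the lowest of the 8 classes for Dap and the highest for Dapl1, which stood between 9.79 and 23.4 CPM in the other CD8 classes and at 5.85 CPM or less in regulatory T, NK and myeloid cells. The difference between the classes in the Dap ratio was not tested. The naive call was lost under stricter gates and among cells with only Y-linked genes (0.28).

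Between PD-1 and naive CD8 cells of the same library, a gene was called when it reached 1.5-fold in the same direction in both libraries with both intervals clear of equality. By this rule 4 of 26 measured members were higher in PD-1 CD8 cells and 0 lower, against 27.9% of all measured genes higher and 6.44% lower. All genes were shifted here, by medians of 0.30 (WT) and 0.31 (Dapl1-KO) on the log2 scale, and the members' medians were 0.18 and 0.37. Gabarapl1 differed most, from 6.31 to 31.6 CPM in the library labelled WT (log2 ratio 2.32, 1.91 to 2.77) and from 8.32 to 24.2 CPM in the library labelled Dapl1-KO (1.54, 1.08 to 2.03). Atg16l2 was higher by 1.42 and 0.92, Gabarap by 0.81 and 0.87, and Dap by 1.27 and 0.62. Relative to the shift of all genes, Gabarap and Dap no longer reached 1.5-fold in both libraries, and Gabarapl1 and Atg16l2 did. Map1lc3b (0.53 and 0.59), Gabarapl2 (0.42 and 0.45) and Sqstm1 (0.57 and 0.87) lay above 0 in both libraries and did not reach the call.

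In cycling against PD-1 CD8 cells the direction depended on the scale. As a share of RNA (CPM), 0 of 23 measured members were higher and 1 lower, against 14.7% and 4.62% of all genes, and the members' medians were -0.20 and -0.24 where all genes had 0.10 and 0.08. Atg2a was the 1 called lower, from 26.6 to 17.2 CPM in the library labelled WT (log2 ratio -0.63, -0.82 to -0.45) and from 24.0 to 15.5 CPM in the library labelled Dapl1-KO (-0.63, -0.79 to -0.46). In all, 15 of the 23 members were below 0 in both libraries and 5 above, and Map1lc3b (-0.49 and -0.64), Gabarap (-0.46 and -0.53) and Sqstm1 (-0.58 and -0.59) were among these 15. The Atg2a call was lost in 3 of 11 alternatives (all deposited barcodes, cells with only Y-linked genes, and cells without a macrophage-marker UMI). A cycling cell, however, held 2.77 times (WT) and 2.78 times (Dapl1-KO) the UMIs of a PD-1 CD8 cell. In mean UMIs per cell 23 of 23 members were higher in cycling cells in both libraries, with medians of 1.27 and 1.23 on the log2 scale. A gene with an unchanged share of RNA rises by the ratio of the totals on this scale. The count of higher members therefore cannot be read as a result about these genes, and the share of all genes is not given here. Map1lc3b went from 4.35 to 8.59 UMIs per cell in the library labelled WT and from 4.67 to 8.38 in the Dapl1-KO-labelled library, and Atg2a had a mean log2 ratio of 0.85 on this scale. UMIs per cell depend on cell size and on capture, which these counts cannot tell apart.

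**Figure D3:**
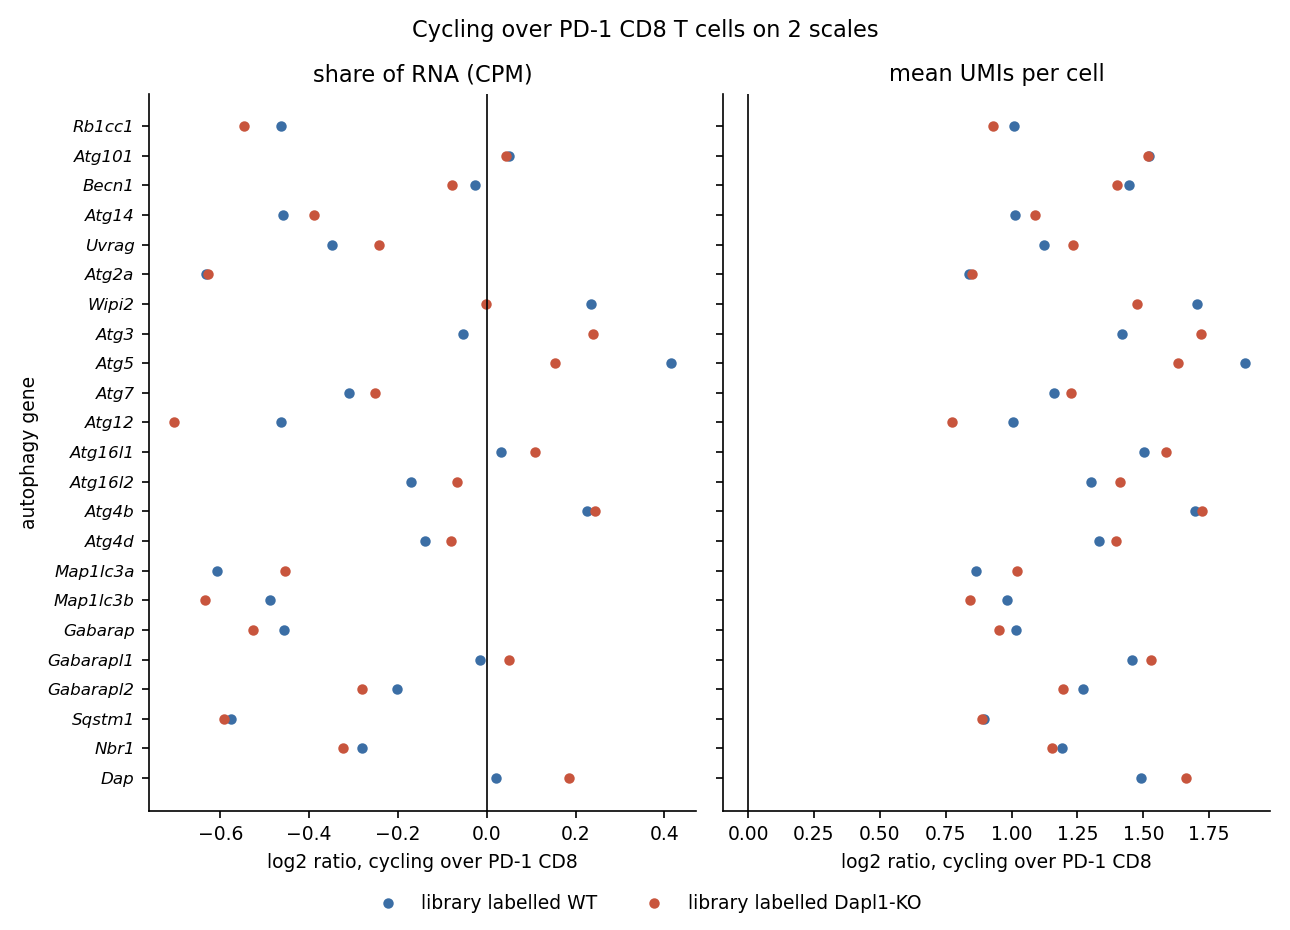
Log2 ratio of cycling over PD-1 CD8 cells for the 23 measured autophagy genes, by share of RNA in CPM (left) and by mean UMIs per cell (right), for the library labelled WT (blue) and the library labelled Dapl1-KO (red). On the left 15 genes lie below 0 in both libraries, and on the right all 23 lie above 0, where the larger UMI totals of cycling cells raise any gene of unchanged share.

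Regulatory T cells set against conventional CD4 cells had 2 of 26 members higher and 0 lower, against 10.2% and 5.29% of all genes. These were Gabarapl1, at 16.6 and 27.9 CPM labelled WT (log2 ratio 0.75, 0.31 to 1.20) and at 14.0 and 26.5 CPM labelled Dapl1-KO (0.92, 0.45 to 1.43), and Atg16l2 (0.67 and 0.64). The Gabarapl1 and Atg16l2 calls were both lost when ratios were centred on all genes, whose medians were 0.17 and 0.08. Both were also lost under stricter gates and among cells with only Y-linked genes, and that of Atg16l2 when the doublet score was not used. Both genes were also among the 4 called in PD-1 over naive CD8 cells. In UMIs per cell 26 of 26 members were above in regulatory T cells in both libraries, which held 1.68 and 1.60 times the UMIs of a conventional CD4 cell. The larger totals raise a gene of unchanged share here too, so this count is not a result about these genes.

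Myeloid cells set against PD-1 CD8 cells had 4 of 24 members higher and 2 lower, against 19.1% and 15.4% of all genes. Gabarap was higher in myeloid cells, from 287 to 981 CPM in the library labelled WT (log2 ratio 1.77, 1.61 to 1.94) and from 352 to 952 CPM in the library labelled Dapl1-KO (1.44, 1.32 to 1.56). Its close relative Gabarapl2 was lower, from 133 to 52.7 CPM (-1.33, -2.09 to -0.67) and from 165 to 98.1 CPM (-0.75, -1.13 to -0.40). The GABARAP family thus differed in opposite directions in the same cells. Sqstm1 (1.47 and 1.24), Uvrag (1.93 and 1.92) and Atg3 (0.85 and 1.14) were higher too. Atg16l2 was 2.96-fold lower in myeloid cells labelled WT when its 0 UMIs were set to the floor of 3 counts, a stand-in value that is not a lower bound. Its single UMI labelled Dapl1-KO gave a log2 ratio of -3.97 (-9.28 to -1.49). The calls of Gabarap, Gabarapl2, Sqstm1, Uvrag and Atg3 held in all 10 alternatives, a wider myeloid gate of 56 and 122 cells among them. Ms4a7, a macrophage gene that the myeloid gate did not use, stood at 173 and 202 CPM against at most 0.624 CPM in the other classes; the gate required 0 counts of Cd3d, Cd3e and Cd3g, so they do not measure T cell content.

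Lysosome genes, the end point of the pathway, differed between the libraries more often than the autophagy genes did in effector CD8 cells. There 12 of 25 measured lysosome genes were higher in the Dapl1-KO-labelled library and 1 lower, beside 14.4% and 6.05% of all genes, and in PD-1 CD8 cells 6 of 23 were higher and 0 lower, beside 12.6% and 8.56%. Ctsd (cathepsin D, a lysosomal protease) went from 237 to 345 CPM in PD-1 CD8 cells (log2 ratio 0.54, 0.48 to 0.60), from 182 to 253 CPM in effector CD8 cells (0.48, 0.33 to 0.63) and from 213 to 326 CPM in cycling CD8 cells (0.61, 0.57 to 0.65). Npc2, a lysosomal cholesterol carrier, went from 267 to 357 CPM in PD-1 CD8 cells (0.42, 0.36 to 0.47). In cycling CD8 cells 5 of 24 lysosome genes were higher and 0 lower (all genes 8.24% and 7.56%), and in myeloid cells 1 and 7 of 29 (7.5% and 6.55%). The counts were near the shares of all genes in naive CD8 cells, at 4 and 4 of 21 (16.3% and 15.6%), and for the lower calls in regulatory T cells, at 0 and 5 of 25 (5.76% and 14.3%). They were under those shares in NK cells, at 1 and 0 of 25 (8.83% and 8.81%), and in conventional CD4 cells, at 1 and 1 of 22 (11.2% and 8.17%). In the myeloid class the macrophage genes Apoe (2599 and 973 CPM) and C1qb (1648 and 963 CPM) were lower in the library labelled Dapl1-KO too, and their part in that count was not tested.

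Melanocyte genes also differed between the libraries in some classes, and not always in the direction of the lysosome counts. The summed level of Pmel, Mlana, Dct and Tyrp1 was 3.43 CPM labelled WT and 361 CPM labelled Dapl1-KO in effector CD8 cells, 215 and 626 CPM in cycling CD8 cells, 497 and 96.9 CPM in regulatory T cells, and 11.7 and 896 CPM in myeloid cells. Cd63, a lysosomal membrane protein that melanosomes also carry, had the largest lysosome ratio in effector CD8 cells (4.39) and in regulatory T cells (-1.58). Without cells of 5 or more melanocyte or fibroblast UMIs, which took out at most 17 cells of a class and library, the melanocyte sum was 1.80 to 25.4 CPM everywhere. In effector CD8 cells this took out 1 cell, labelled Dapl1-KO, and the sum in that library was then 16.6 CPM. The lysosome counts were then 9 higher and 1 lower of 23 in effector CD8 cells, 6 and 0 of 23 in PD-1 CD8 cells, 2 and 1 of 21 in cycling CD8 cells, and 1 and 2 of 23 in regulatory T cells. In myeloid cells the lysosome count stayed at 1 higher and 7 lower of 29, where the melanocyte sum had been higher labelled Dapl1-KO. The shares of all genes among the cells left are not given here. Ctsd kept its ratios in PD-1 (0.54), effector (0.49) and cycling (0.63) CD8 cells, and Cd63 was under the limit of 10 CPM in effector, cycling and regulatory T cells. The autophagy counts changed by 1 gene at most in any class.

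**Figure D4:**
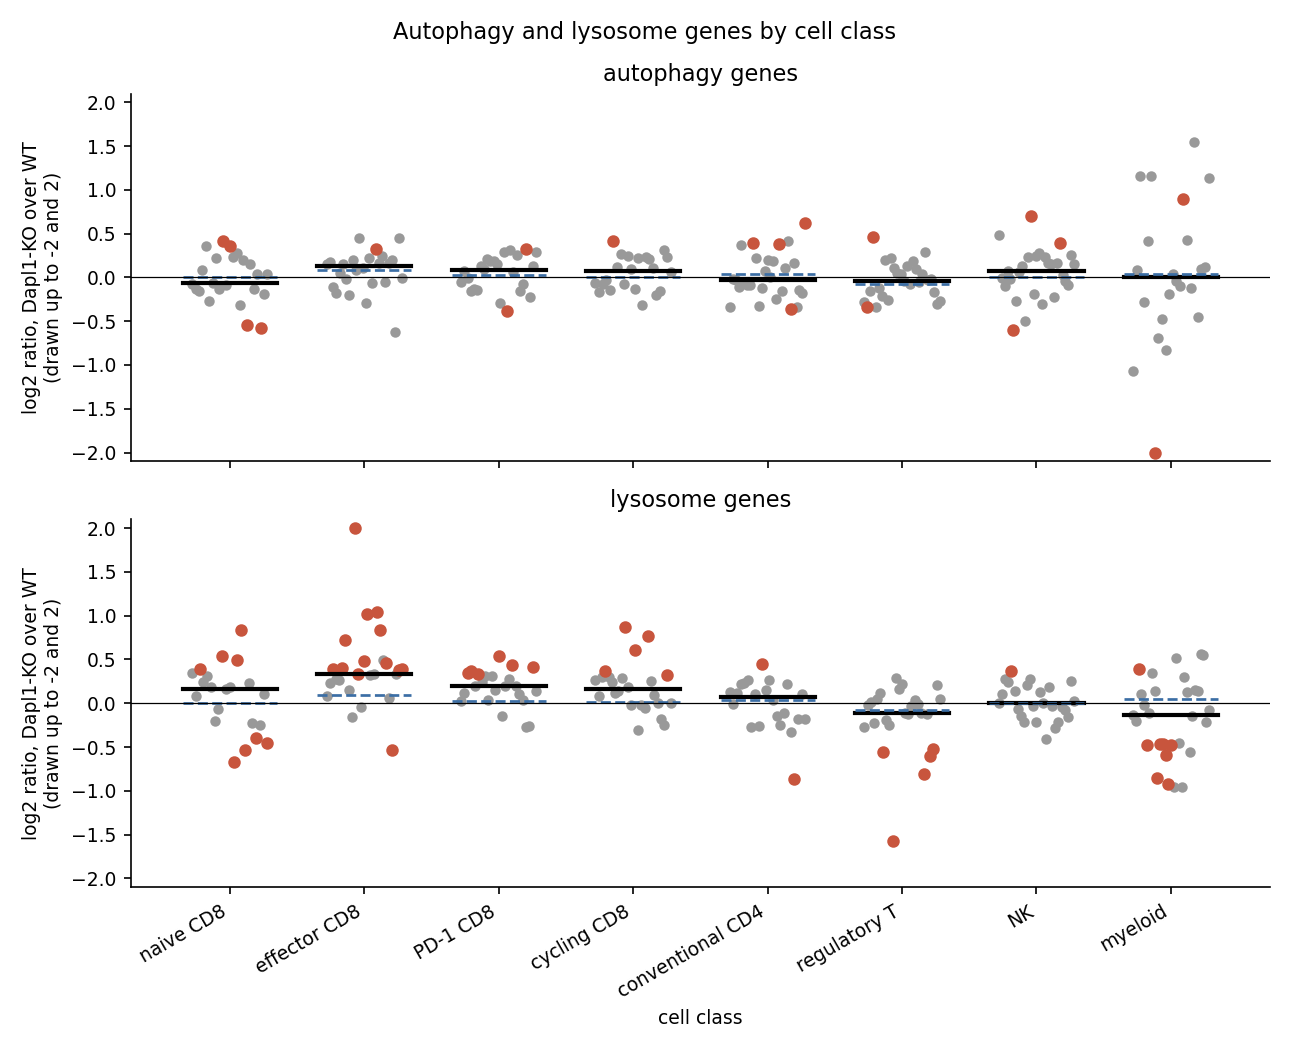
Log2 ratio, library labelled Dapl1-KO over library labelled WT, of the measured autophagy genes (top) and lysosome genes (bottom) in each cell class; red points are called at the 25% limit, black bars are medians of the list and dashed blue bars medians of all measured genes. Values beyond 2 are drawn at 2. The lysosome median in effector CD8 cells is 0.34 against 0.09 for all genes, and the autophagy medians stay between -0.06 and 0.13.

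Upstream of the pathway, mTORC1 and AMPK genes were called in each class, with Ddit4 and Sesn1 the most frequent. Ddit4 (REDD1, a stress-induced brake on mTORC1) was lower in the library labelled Dapl1-KO in 7 of 8 classes, from 68.8 to 26.9 CPM in naive CD8 cells (log2 ratio -1.35, -1.63 to -1.08), from 59.7 to 30.5 CPM in PD-1 CD8 cells (-0.97, -1.12 to -0.81) and from 72.9 to 40.4 CPM in cycling CD8 cells (-0.85, -0.93 to -0.77). In regulatory T cells Ddit4 stood at 139 and 122 CPM (-0.20, -0.33 to -0.06) and was not called. Sesn1 (sestrin 1, which restrains mTORC1 through amino acid sensing) was lower in 6 classes, from 36.9 to 21.8 CPM in naive CD8 cells (-0.76, -1.09 to -0.44) and from 23.7 to 10.9 CPM in effector CD8 cells (-1.12, -1.68 to -0.57). Across the list 2 of 16 measured genes were higher and 3 lower in naive CD8 cells, and 0 of 16 higher and 2 lower in PD-1 CD8 cells. In naive CD8 cells these counts are near the shares of all genes (16.3% and 15.6%), and in PD-1 CD8 cells they stand beside 12.6% and 8.56%. The list's medians in these classes, 0.01 and -0.04, stood beside 0.00 and 0.03 for all genes. Effector CD8 cells had 2 higher and 2 lower of 17 (all genes 14.4% and 6.05%), and cycling CD8 cells 0 and 2 of 16 (8.24% and 7.56%). Conventional CD4 cells had 3 and 2 of 17 (11.2% and 8.17%), and regulatory T cells 0 and 3 of 18 (5.76% and 14.3%). NK cells had 1 and 2 of 17 (8.83% and 8.81%), and myeloid cells 0 and 3 of 18 (7.5% and 6.55%). The higher genes in naive CD8 cells were Lamtor2, a subunit of the lysosomal scaffold of mTORC1 (0.59), and Prkag1, an AMPK subunit (0.52), and the third lower gene was Lamtor3 (-0.36); Prkag1 and Lamtor3 were named after their values were seen.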

How the data were processed

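Per the labels, each library was made with 10x Genomics 3′ v3 chemistry, and Cell Ranger 5.0.0 with builds mm10 and GRCm38 stands in the submitters' processing notes. The authors deposited raw UMI counts, whole numbers without normalization, and the smallest barcode total was 500. The members, gene lists, gates and thresholds were chosen with earlier results of these data known. Where a barcode occurred in both libraries, the copy with at least 2 times the UMIs was kept and 21 unclear barcodes were dropped, which removed 36.0% and 36.4% of barcodes. A cell needed 500 genes or more, with no more than 10% of its counts mitochondrial. Scrublet (scanpy 1.11.5) called 0 doublets by its own threshold, so the highest scores at 0.8% per 1000 cells were removed (873 and 1058 cells). Cells entered classes by marker gates: T cells by a Cd3d, Cd3e and Cd3g sum of at least 2 and under 4 myeloid genes; CD8 by a Cd8a and Cd8b1 sum of at least 2 without Cd4 or Foxp3; cycling by 3 of 10 proliferation genes; PD-1 by Pdcd1; naive by 2 naive-cell genes with little granzyme or perforin; effector by 2 cytotoxic genes; regulatory by Foxp3 without CD8; conventional CD4 by Cd4 without Foxp3 or CD8; NK by 3 NK genes with a Cd3 sum of at most 1; myeloid by 4 myeloid genes with Cd3 at 0.

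Counts were summed per class and library and scaled to CPM. Log2 ratios have exact conditional binomial (Clopper-Pearson) 95% intervals, levels exact Poisson intervals, and a count of 0 stands at a floor of 3 counts. The calculation was tested on simulated data. All 37 members are named, those under 10 CPM in every class by range only, and up to 3 genes of the largest ratio per other list and comparison. Another 9 settings were tried, and 4 more were chosen after seeing the data (a wider myeloid gate, UMIs per cell, no macrophage-marker UMI, under 5 melanocyte or fibroblast UMIs). Calculations used Python 3.11.15, numpy 2.4.6, scipy 1.17.1 and pandas 2.3.3.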

Additional observations from a re-analysis of the deposited data

Results flagged for a closer look

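Dap, the suppressor of autophagy, had ratios in opposite directions in the CD8 classes, each with an interval clear of equality. Its log2 ratio, library labelled Dapl1-KO over library labelled WT, was 0.36 in naive CD8 cells, -0.30 in effector CD8 cells, -0.30 in PD-1 CD8 cells and -0.13 in cycling CD8 cells. The difference between these classes was not tested, since each label has 1 library. Among cells with only Y-linked genes the Dap ratios were 0.28, -0.40, -0.50 and -0.23 in the same order, so the directions were the same in those cells.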

How the results depend on the processing

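No paired analysis was possible because each label has 1 library. The counts of called autophagy genes are small, so 1 or 2 genes can move them by over 1.5 times. Some settings moved them by more genes than that, above all equal cell weights and UMIs per cell. The cause was not tested, and the shares of all genes under these settings are not given here. In the list below a class name stands for the comparison of the library labelled Dapl1-KO with the library labelled WT in that class. The list names only comparisons whose count moved by over 1.5 times or fell to 0. With all deposited barcodes the count was 2 in naive, 1 in PD-1, 0 in cycling, 1 in myeloid and 0 in cycling over PD-1 CD8 cells. Without the doublet score it was 0 in PD-1, 2 in cycling, 1 in regulatory T, 2 in cycling over PD-1 and 1 in regulatory T over conventional CD4 cells. For cells of 1000 genes or more and no more than 5% mitochondrial counts it was 4 in effector, 2 in cycling, 0 in regulatory T and 2 in cycling over PD-1 CD8 cells. Under stricter gates it was 2 in naive, 2 in effector, 2 in cycling, 4 in regulatory T, 5 in NK, 2 in cycling over PD-1 and 1 in regulatory T over conventional CD4 cells. With cells weighted equally, where no interval applies, it was 4 in effector, 2 in cycling, 9 in conventional CD4, 9 in regulatory T, 6 in NK, 14 in myeloid and 7 in PD-1 over naive cells. Centred on all genes it was 2 in effector, 2 in cycling, 1 in regulatory T, 3 in cycling over PD-1 and 0 in regulatory T over conventional CD4 cells. At a minimum of 20 CPM, with fewer genes measured, it was 1 in each of naive, regulatory T, NK and myeloid cells and 2 in PD-1 over naive cells. With no minimum it was 8 in naive, 7 in PD-1, 3 in cycling, 5 in regulatory T and 7 in NK cells. Among cells with only Y-linked genes it was 2 in naive, 2 in effector, 4 in cycling, 6 in regulatory T, 1 in NK and 0 in regulatory T over conventional CD4 cells, and Atg7 in NK cells turned to -0.98; the myeloid class, with 1 cell labelled WT, gave no value. Without macrophage-marker UMIs it was 2 in effector, 1 in PD-1, 2 in cycling and 1 in regulatory T cells. Under 5 melanocyte or fibroblast UMIs, chosen after seeing the data like the settings just before and after, it was 2 in effector, 2 in cycling, 1 in regulatory T and 2 in cycling over PD-1 CD8 cells. In UMIs per cell it was 14 in PD-1 over naive, 23 in cycling over PD-1 and 9 in regulatory T over conventional CD4 cells, and Atg2a in cycling over PD-1 turned to 0.85. Depth limits the myeloid class most, with 341631 UMIs labelled WT.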

Other observations

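Single genes of mitophagy and of autophagosome fusion differed widely between classes. Bnip3, a mitophagy receptor induced by hypoxia, had log2 ratios of PD-1 over naive CD8 cells of 3.17 (library labelled WT) and 2.82 (library labelled Dapl1-KO), of regulatory T over conventional CD4 cells of 1.61 and 1.70, and of myeloid over PD-1 CD8 cells of 2.88 and 3.18. Vamp8, a SNARE protein of fusion with the lysosome, had ratios of 2.59 and 2.45 in PD-1 over naive CD8 cells. In that comparison 4 of 13 measured genes of mitophagy and other receptors were higher and 2 lower, and 4 of 11 genes of fusion and late steps were higher and 0 lower, beside 11 higher and 1 lower of 23 lysosome genes. Of all measured genes 27.9% were higher and 6.44% lower, so the share of higher mitophagy genes is near that of all genes. Ctsb (cathepsin B), at ratios of 2.04 and 2.03, and Ctsd, at 1.39 and 1.75, were among the higher lysosome genes, while Ctsl (cathepsin L), named as the 1 lower gene after its values were seen, was lower, at -1.33 and -0.96.

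Between the libraries, a few genes of these lists were called. Bnip3 was lower in PD-1 CD8 cells labelled Dapl1-KO (log2 ratio -0.35), and Pink1 and Tollip were lower in NK cells (-0.59 and -0.71). Tecpr1, a tethering factor of fusion, was lower in naive CD8 (-0.65), PD-1 CD8 (-0.34) and conventional CD4 cells (-0.43), and higher in myeloid cells (1.98), there from 8.78 to 34.7 CPM. In myeloid cells labelled WT 8.78 CPM equals 3 counts, so this ratio rests on few UMIs. The fusion list had 3 higher and 0 lower of 16 in myeloid cells (all genes 7.5% and 6.55%). Without cells of 5 or more melanocyte or fibroblast UMIs it had 1 and 0 of 15, for which the shares of all genes are not given here. In myeloid over PD-1 CD8 cells 26 of 28 measured lysosome genes were higher and 0 lower, against 19.1% and 15.4% of all genes.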
